A study of Mus musculus with 3 samples.

Results

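P-TEFb and its partners are the machinery that lets RNA polymerase II (Pol_II) leave the pause that follows initiation. The 9 genes described here encode the P-TEFb kinase Cdk9 and its cyclins Ccnt1 and Ccnt2, Hexim1 and Larp7 of the 7SK ribonucleoprotein that holds P-TEFb inactive, the elongation factors Ell and Ell2, and Aff1 and Aff4, the scaffolds of the super elongation complex. They were chosen by name among 22342 protein-coding genes of the GENCODE M1 annotation on mm9 and all 9 were found. What was measured is how much Ser5-phosphorylated Pol_II lay on these genes themselves, not the activity of the proteins they encode.

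ChIP-Seq, the sequencing of DNA that an antibody pulls down from fixed chromatin, was carried out with antibody ab5131 against the Ser5-phosphorylated repeat of the Pol_II C-terminal domain. The cells were primary bone marrow-derived macrophages (BMDM) of female Fvb mice at day 7 of differentiation, grown in L929-conditioned medium. One Ser5 library came from untreated cells, another from cells given lipopolysaccharide (LPS, bacterial endotoxin, 10 ng/ml) for 2 h, and the third was input DNA, without antibody, of untreated cells. There was no input of LPS-treated cells, no genetic change was made, and how many mice were pooled is not given in the sources used here. With 1 library per condition no difference could be set against replicate error, so no test was made, and every interval below is a 95% interval for counting error only. PCR copies of a fragment are not independent, which these intervals do not cover.

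The libraries held 7616771 (untreated Ser5), 6249819 (LPS Ser5) and 7533308 (input) tags on the chromosomes used. Outside the peaks of either Ser5 library lay 50.2%, 46.7% and 95.5% of these tags. Scaled to all tags, as below, background is therefore set lower in the Ser5 libraries than in input. A level at or below input then does not show that Ser5 was absent. The deposited tags were 45 bases long in the untreated, 30 in the LPS and 36 in the input library, whereas the methods text gives the lengths of the Ser5 libraries the other way round. The labelled treatment was visible at all 5 LPS response genes examined (Tnf, Il1b, Ccl5, Cxcl10, Nfkbia), with a median LPS to untreated ratio of 39.6 at the transcription start site (TSS). All 6 macrophage markers had a Ser5 peak at the TSS in both libraries, and their summed TSS levels were 245 TPM per kb in untreated cells, 177 after LPS and 10.0 in input, where TPM stands for tags per 1000000 tags of the library on the chromosomes used. For the 5 other lineages (T, B, neutrophil, stroma and erythroid, 3 markers each) the summed levels ran from 0.197 to 1.38 in untreated cells, from 0.560 to 1.52 after LPS and from 0.995 to 2.12 in input. One T cell marker, Lck, nevertheless had a peak at its TSS in both libraries, at 4 tags in untreated cells and 12 after LPS. In such bulk chromatin, fewer cells carrying Pol_II on a gene and less Pol_II per cell cannot be told apart.

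P-TEFb, a dimer of Cdk9 and a T-type cyclin, phosphorylates the Pol_II C-terminal domain and the pausing factors NELF and DSIF. In the 7SK particle Hexim1 inhibits the kinase and Larp7 protects the RNA, and release of P-TEFb from it is one way in which cells draw on a stored pool. Ser5 phosphorylation itself is laid down mainly by the kinase of TFIIH near promoters, and many immediate LPS response genes of macrophages are known to be controlled at elongation.

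The promoters of 6 of the genes are shown, to show where the starts lie, which moves the values of Ccnt1 below, and which motif letters some of them share. They come from the RefSeq promoter table (GRCm38.p6), 250 bases before to 50 after the start, and each was placed on mm9 by its only exact match on the chromosome. Capitals mark matches to the motifs searched, on either strand.
Hexim1 (chr11:102977389-102977688, plus strand): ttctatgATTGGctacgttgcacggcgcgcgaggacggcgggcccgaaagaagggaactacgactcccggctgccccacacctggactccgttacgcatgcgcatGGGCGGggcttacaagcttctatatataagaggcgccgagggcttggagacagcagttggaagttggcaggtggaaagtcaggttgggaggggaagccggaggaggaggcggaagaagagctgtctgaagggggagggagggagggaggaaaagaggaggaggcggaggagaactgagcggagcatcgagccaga
Larp7 (chr3:127256218-127256517, minus strand): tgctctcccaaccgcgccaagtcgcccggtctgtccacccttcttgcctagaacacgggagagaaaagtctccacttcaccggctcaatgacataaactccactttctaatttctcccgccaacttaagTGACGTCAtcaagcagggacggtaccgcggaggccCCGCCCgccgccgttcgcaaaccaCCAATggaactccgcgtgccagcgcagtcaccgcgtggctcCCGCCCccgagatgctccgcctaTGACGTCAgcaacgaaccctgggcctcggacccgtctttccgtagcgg
Ccnt1 (chr15:98398118-98398417, minus strand): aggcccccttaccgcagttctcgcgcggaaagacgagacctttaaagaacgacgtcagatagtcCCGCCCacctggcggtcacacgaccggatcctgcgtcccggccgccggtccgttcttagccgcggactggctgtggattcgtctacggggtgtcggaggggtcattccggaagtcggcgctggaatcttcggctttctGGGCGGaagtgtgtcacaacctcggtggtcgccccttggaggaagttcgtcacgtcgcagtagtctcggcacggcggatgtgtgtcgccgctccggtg
Ccnt2 (chr1:129670491-129670790, plus strand): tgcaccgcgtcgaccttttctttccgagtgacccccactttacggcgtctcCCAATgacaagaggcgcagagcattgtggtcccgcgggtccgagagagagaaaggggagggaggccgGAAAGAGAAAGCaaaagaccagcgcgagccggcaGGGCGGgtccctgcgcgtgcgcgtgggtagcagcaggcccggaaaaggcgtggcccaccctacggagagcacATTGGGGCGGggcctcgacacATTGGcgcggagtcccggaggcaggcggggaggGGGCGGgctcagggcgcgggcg
Ell (chr8:73063324-73063623, plus strand): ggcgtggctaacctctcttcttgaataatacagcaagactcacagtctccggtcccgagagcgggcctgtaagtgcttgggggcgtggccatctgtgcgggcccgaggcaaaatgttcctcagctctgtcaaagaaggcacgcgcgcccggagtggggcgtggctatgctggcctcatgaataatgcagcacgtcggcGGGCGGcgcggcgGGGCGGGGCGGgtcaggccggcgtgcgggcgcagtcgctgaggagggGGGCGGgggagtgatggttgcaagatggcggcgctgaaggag
Ell2 (chr13:75844682-75844981, plus strand): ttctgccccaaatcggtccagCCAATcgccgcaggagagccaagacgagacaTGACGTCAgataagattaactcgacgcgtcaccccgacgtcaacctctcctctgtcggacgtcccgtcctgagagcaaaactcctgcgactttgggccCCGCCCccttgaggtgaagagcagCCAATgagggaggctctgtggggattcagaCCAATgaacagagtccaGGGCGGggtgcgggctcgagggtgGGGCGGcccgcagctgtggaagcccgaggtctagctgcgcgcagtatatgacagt

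The 9 promoters nearest the annotated starts were rich in G and C, with a median of 63.7% and 30 CpG dinucleotides, against 52.7% and 7 over all 32851 promoters of the table. GGGCGG (GC box) was found in 8 of the 9, all but Aff4, and in 35.7% of all promoters. CCAAT was found in Hexim1, Larp7, Cdk9, Ccnt2 and Ell2, and in 37.4% of all. TGACGTCA, the cyclic AMP response element, was found in Larp7 at 2 places and in Ell2 at 1, and in 1.79% of all. The interferon-stimulated response element was found in Ccnt2 alone of the 9 (3.43% of all), and the E-box CACGTG in Aff4 alone (7.15%). TATAAA (13.6% of all), TGANTCA (AP-1, 7.81%) and the NF-kB motif (8.46%) were found in none of these 9 windows. In Ccnt2 a CCAAT match and a GC box overlap, as do a pair of GC boxes in Ell. These are matches of letters and not sites of binding.

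Before LPS, Ser5 Pol_II was present at the start of nearly every one of these genes. Levels are tag 5′ ends within 1 kb of the TSS in TPM per kb, and the TSS is that of the longest annotated coding sequence. Ser5 of untreated cells was at least 2 times the input at 8 of the 9 genes, and so it was after LPS; over all coding genes the shares were 49.1% and 47.8%. A deposited peak lay within 1 kb of the TSS of 9 genes in untreated cells and of 8 after LPS, against 47.9% and 45.9% of all coding genes. The gene that missed the input rule in both libraries and had no LPS peak was Ccnt1, whose annotated start carried little Ser5. In untreated cells Ccnt1 was 1.98 times input (1.15 to 3.52), just under the rule. Scaled to tags outside the peaks of either Ser5 library, all 9 genes met the rule in both libraries. With the start that RefSeq gives, all 9 genes met the input rule and had a peak in both libraries.

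**Figure D1:**
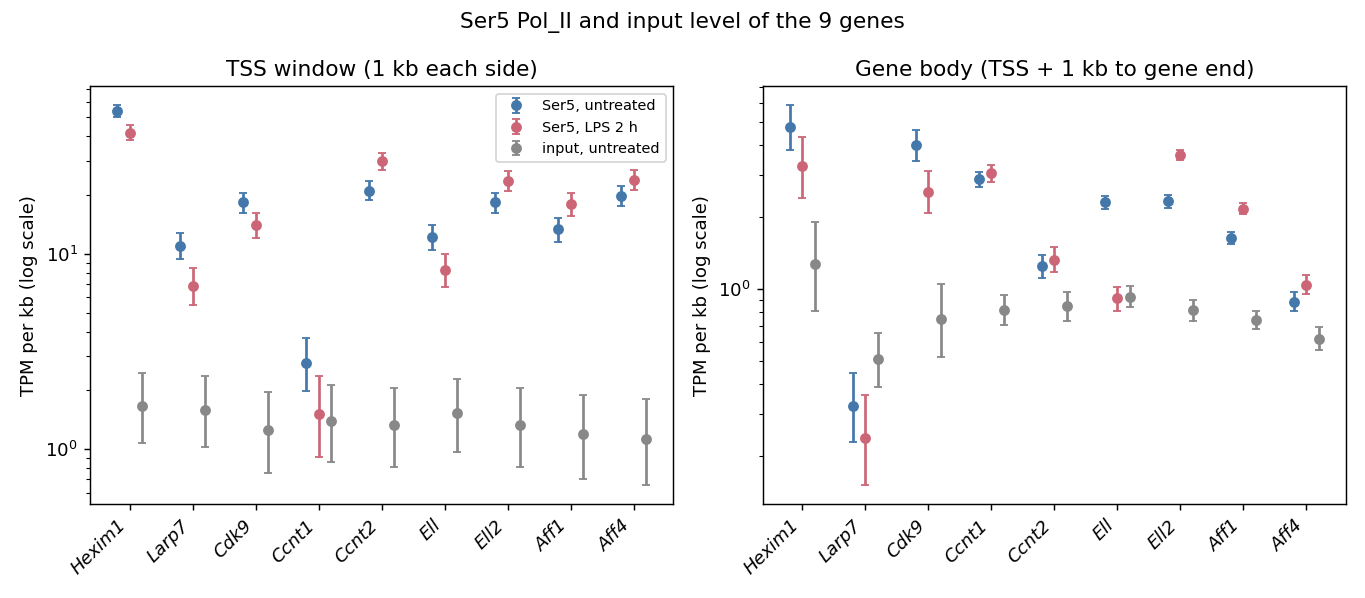
TPM per kb (log scale) of each gene in the TSS window, left, and in the gene body, right, for untreated Ser5, Ser5 after LPS and input; points are single libraries and bars 95% intervals for counting error. Hexim1 is highest at the TSS in both Ser5 libraries, Ccnt1 lies close to input at its annotated TSS, and the body of Ell after LPS lies at the input level.

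With repeated tags included, the gene for the P-TEFb inhibitor, Hexim1, had by far the most Ser5 at its TSS. It held 817 tags in untreated cells, 522 after LPS and 25 in input, which is 53.6, 41.7 and 1.66 TPM per kb. Its untreated level lay at the 99.2 percentile of the 12572 coding genes that reached 10 tags in the Ser5 libraries together, and its LPS level at the 97.8 percentile. The order in untreated cells went on with Ccnt2 (21.1), Aff4 (19.7), Ell2 and Cdk9 (both 18.3), Aff1 (13.3), Ell (12.2), Larp7 (10.96) and Ccnt1 (2.76). Counting intervals of neighbours overlapped from Ccnt2 to Cdk9 and from Aff1 to Larp7, so those genes could not be ordered. After LPS, Hexim1 was followed by Ccnt2 (29.7), Aff4 (23.8), Ell2 (23.6), Aff1 (17.9), Cdk9 (14.0), Ell (8.24), Larp7 (6.88) and Ccnt1 (1.52). Here the intervals of Aff4 and Ell2, of Aff1 and Cdk9, and of Ell and Larp7 overlapped.

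Where the tags lay differed among the genes. At Hexim1 the highest 100 bp bin was the one just upstream of the TSS, with 363 of the untreated and 214 of the LPS tags. Ell2 and Ccnt2 had their highest bin just downstream of the TSS in both libraries, with 161 and 146 tags at Ell2 and 80 and 93 at Ccnt2. At Ell2, 89.6% of the untreated tags within 1 kb lay downstream of the TSS and 86.4% of the LPS tags. Aff1 showed the opposite, with 4.93% and 11.5% downstream and the highest bin at -800 to -701 bp from the TSS in both libraries. Aff1 has 4 annotated coding starts, the most upstream of which lies at chr5:104183181, 411 bp upstream of the one used. The highest bin lies upstream of that start too. At Ell the bin just downstream of the TSS held 29 tags in each library, and in untreated cells a bin at -1400 to -1301 bp, outside the TSS window, held 30.

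**Figure D2:**
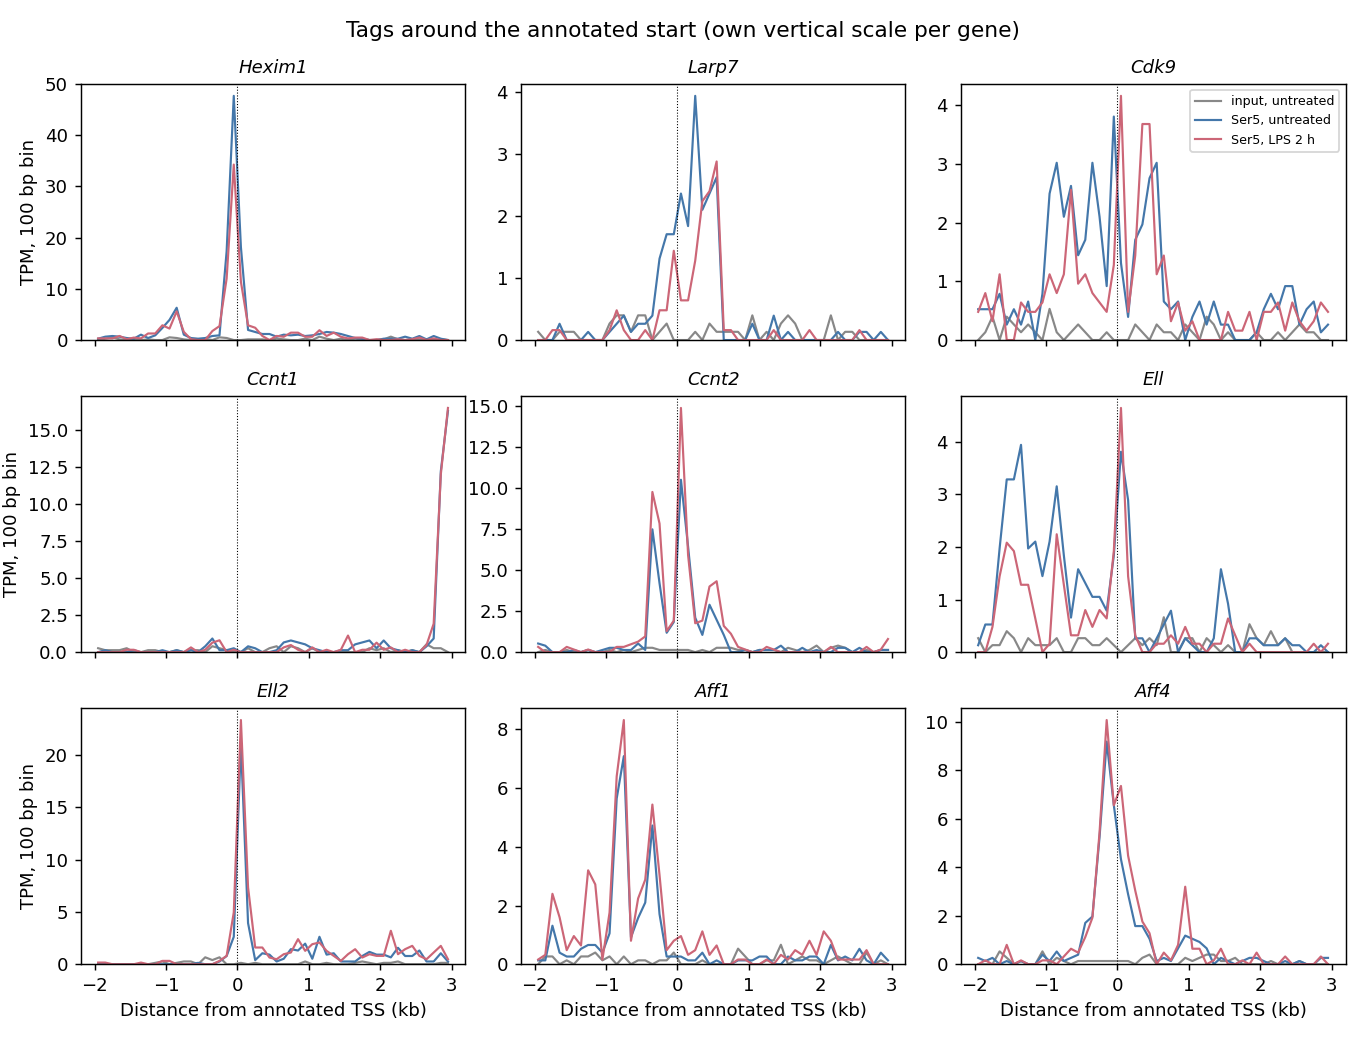
TPM in 100 bp bins (vertical axis, own scale per gene) from 2 kb upstream to 3 kb downstream of the annotated TSS (dotted line), for untreated Ser5, LPS Ser5 and input. Ccnt1 shows no peak at the annotated TSS and a tall one near 3 kb downstream, and Aff1 has its tallest bin upstream of the TSS.

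At Ccnt1, the cyclin most often found with Cdk9, the annotated TSS held 42 untreated, 19 LPS and 21 input tags. The untreated peak counted there was small, with a score of 70.06 and its midpoint 771 bp downstream. This start lies 98 bp from that of 4930415O20Rik, a gene on the other strand. A further annotated coding start, 3287 bp downstream at chr15:98398067, held 367, 350 and 24 tags and a peak in both libraries with scores of 2132.77 and 2282.14. The RefSeq start, whose promoter is printed above, lies 100 bp from it and held 369, 353 and 24 tags. The level of Ccnt1 at the RefSeq start was thus 24.2 TPM per kb in untreated cells and 28.2 after LPS, within the range of the other genes. The noncoding transcript 9330020H09Rik, on the other strand, overlaps this region.

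After LPS, the ratio of Ser5 Pol_II to its untreated level lay within 2-fold at the TSS of each of these genes. The counting intervals of Ccnt1 (0.303 to 0.969) and Larp7 (0.478 to 0.819) nevertheless reached past 2-fold lower. None of the 9 ratios passed 2-fold at the TSS in either direction. Of 12572 coding genes, 5.7% were at least 2 times higher there and 14% at least 2 times lower. Beside these shares, 0 of 9 was not read as a trait of the set. In the gene body, from 1 kb past the TSS to the gene end, none was 2 times higher and 1, Ell, was 2 times lower, against 6.72% higher and 12.3% lower of 16516 coding genes. The median ratio of LPS to untreated over the 9 was 0.779 at the TSS and 1.06 in the body. Over all coding genes that passed the minimum it was 0.834 and 0.885, so that most genes had a ratio below 1.

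Below 2-fold, the genes fell on both sides of 1. At the TSS, the interval lay wholly above 1 for 4 members (Ccnt2, Ell2, Aff1 and Aff4) and wholly below 1 for 5 (Hexim1, Larp7, Cdk9, Ccnt1 and Ell), against 11.8% and 37.9% of all coding genes. Set against the median of all coding genes, 0.834, the interval of the same 4 lay above it, that of Larp7 below, and those of 4 spanned it. In the gene body 3 intervals lay above 1 (Ell2, Aff1, Aff4), 3 below (Hexim1, Cdk9, Ell) and 3 spanned it, against 15.2% above and 29.6% below over all coding genes. In both windows, whether an interval leaves out 1 also depends on the number of tags. The shares over all coding genes include genes with as few as 10 tags, while all 9 held more. Set against the body median of all coding genes, 0.885, 5 intervals lay above, 2 below and 2 spanned it. With the RefSeq start of Ccnt1 its TSS ratio was 1.17 (1.005 to 1.35), an interval wholly above 1 in place of wholly below. The median over the 9 was then 1.17 and no longer below 1. Both the side of Ccnt1 and the position of the median at the TSS rest on the start chosen for this one gene.

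**Figure D3:**
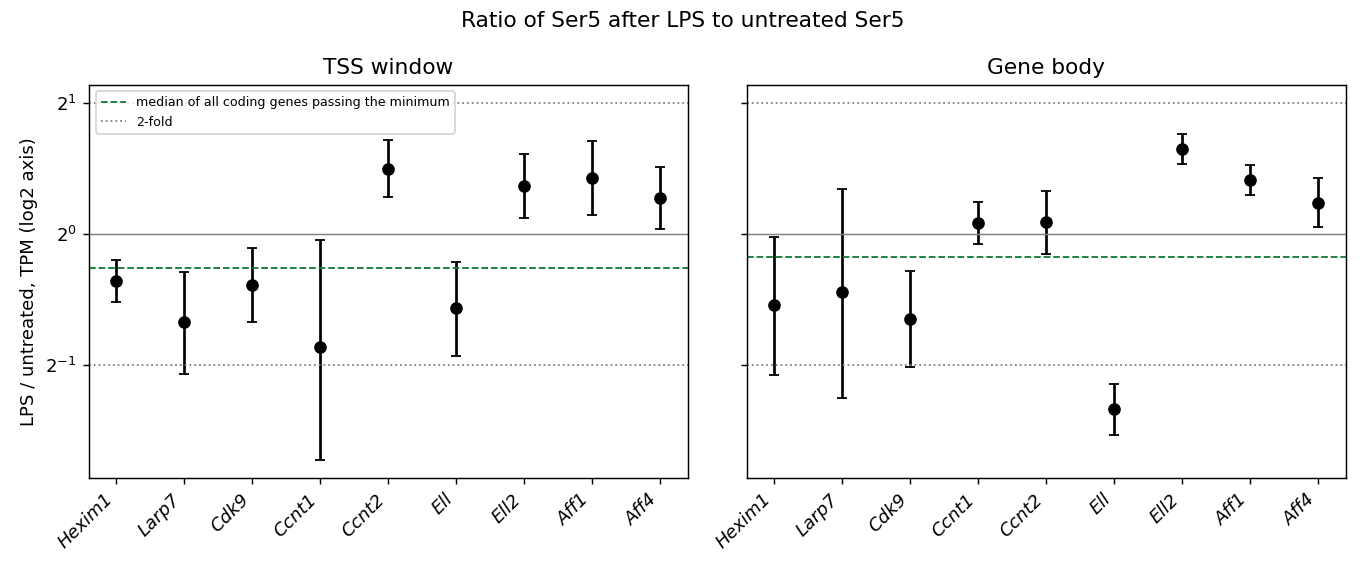
Ratio of LPS to untreated TPM (log2 axis) at the TSS, left, and in the gene body, right, with 95% intervals for counting error; the dashed line is the median of all coding genes that passed the minimum and the dotted lines are 2-fold. Ell in the gene body, at 0.396, is the one value past 2-fold.

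Among the genes of the inhibitory particle, both had ratios below 1. Hexim1 had an LPS to untreated ratio of 0.779 (0.696 to 0.870) at the TSS, an interval that contains the median of all coding genes. Counting 1 tag per position and strand, the ratio was 0.900, outside this interval. In its short body Hexim1 held 87 untreated, 49 LPS and 23 input tags, a ratio of 0.686 (0.473 to 0.985). Larp7 had 167, 86 and 24 tags at the TSS, and the ratio was 0.628 (0.478 to 0.819). Its body held fewer Ser5 tags than input, 38 and 23 against 59. Scaled to all tags, no Ser5 signal above input was detectable there at this depth. The body ratio of Larp7, 0.738 (0.420 to 1.27), may therefore compare mostly background. The Larp7 start lies 141 bp from that of 4930422G04Rik on the other strand, and tags of the pair cannot be separated in the TSS window. The Mir302 and Mir367 hairpins lie within Larp7 on the opposite strand.

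The kinase gene Cdk9 had ratios below 1 in both windows, while those of its cyclin genes differed by gene, window and start. Cdk9 held 279, 175 and 19 tags at the TSS in untreated Ser5, LPS Ser5 and input, a ratio of LPS to untreated of 0.764 (0.629 to 0.927). Its body held 183, 96 and 34 tags and the ratio was 0.639 (0.494 to 0.823), below the median of all coding genes. The share of the TSS tags of Cdk9 lying downstream of the TSS was 35.9% in untreated cells and 61.1% after LPS. There were 177 and 68 tags upstream and 99 and 107 downstream.

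Ccnt2, the alternative cyclin, had the highest TSS ratio of the 9, with 321 untreated, 372 LPS and 20 input tags and a ratio of 1.41 (1.21 to 1.64). Its body, with 313, 273 and 210 tags, was only 1.47 times input in untreated cells and 1.57 times after LPS, and its ratio was 1.06 (0.900 to 1.25). The TSS level relative to the body level was therefore 16.9 in untreated cells and 22.4 after LPS, a change of 1.33 (1.06 to 1.67). Ccnt1 had 685, 595 and 193 tags in its body, which here includes the RefSeq start, and a ratio of 1.06 (0.947 to 1.18). At its annotated TSS, near input, the ratio was 0.551 (0.303 to 0.969). Over 4 values per gene (TSS and body level in each Ser5 library, log2 of the level plus 0.1), the genes closest to Ccnt2 among 19523 were Ube3b, Cpsf2 and Adprh, at distances of 0.212, 0.224 and 0.324. Those closest to Ccnt1, with its annotated start, were Ubxn11, Scgb3a1 and Acbd4, at 0.292, 0.414 and 0.462.

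The paralogs Ell and Ell2, which raise the rate of elongation as parts of the super and little elongation complexes, had the lowest and the highest body ratio of the 9. Ell held 917 tags in its body in untreated cells, 298 after LPS and 366 in input, a ratio of LPS to untreated of 0.396 (0.346 to 0.452). Its body was thus 2.48 times input (2.19 to 2.80) in untreated cells and 0.981 times input (0.839 to 1.15) after LPS. At the TSS the counts were 186, 103 and 23 and the ratio was 0.675 (0.525 to 0.863). The TSS to body ratio of Ell was 5.29 in untreated cells and 9.01 after LPS, a change of 1.70 (1.28 to 2.26). Scaled to all tags, the body after LPS lay at the input level, so 9.01 and 1.70 may rest largely on background. How much of this signal is background was not tested. The lower LPS signal extended along the whole body of Ell, with ratios of 0.371, 0.309, 0.406 and 0.547 in 4 successive equal parts. Over the 5 kb past the gene end the ratio was 0.369. That stretch held 8.77 TPM per kb in untreated cells, against 1.88 in the last part of the body. Whether its signal belongs to Ell was not tested. After LPS the first 2 parts of the body lay below input, at 1.08 against 1.56 and 0.822 against 1.10 TPM per kb. The third was near it, at 0.724 against 0.621, and the last above it, at 1.03 against 0.448. A level below input on this scale does not show that Ser5 was absent there.

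Ell2 held 1132, 1456 and 392 tags in its body in untreated Ser5, LPS Ser5 and input, a ratio of 1.57 (1.45 to 1.70). At the TSS it held 279, 295 and 20 tags and the ratio was 1.29 (1.09 to 1.52). The same 4 parts of its body had ratios of 1.25, 1.61, 1.92 and 1.68, and the 5 kb past the end 1.78. The interval of the third part (1.64 to 2.25) did not overlap that of the first (1.09 to 1.44). The TSS to body ratio was 7.87 in untreated cells and 6.47 after LPS, a change of 0.822 (0.683 to 0.990). In the untreated library the bodies of Ell and Ell2 had nearly equal levels, 2.31 and 2.33 TPM per kb, with overlapping intervals, and after LPS they were 0.914 and 3.65.

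The scaffold genes Aff1 and Aff4, which bind P-TEFb and the ELL factors together, both had ratios above 1 in each window. Aff1 held 203, 224 and 18 tags at the TSS, a ratio of 1.34 (1.11 to 1.63), and at its most upstream coding start the ratio was 1.495. In its body the counts were 1242, 1355 and 558 and the ratio was 1.33 (1.23 to 1.44), from 1.69 in the first of its 4 parts to 1.08 in the last. Aff4 held 301, 298 and 17 tags at the TSS, a ratio of 1.21 (1.02 to 1.42), and 472, 457 and 327 in the body, a ratio of 1.18 (1.04 to 1.34). The body of Aff4 was low in both libraries, 1.43 and 1.68 times input.

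**Figure D4:**
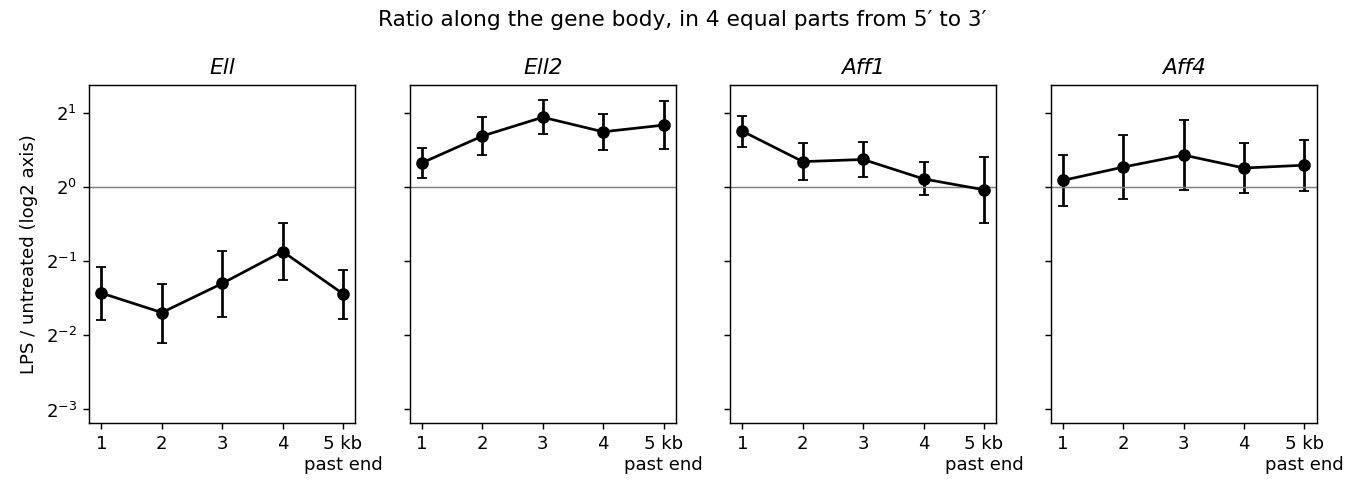
Ratio of LPS to untreated TPM (log2 axis) in 4 equal parts of the gene body from 5′ to 3′ and in the 5 kb past the gene end, with 95% intervals for counting error, for Ell, Ell2, Aff1 and Aff4. All 5 values of Ell lie below 1 and all 5 of Ell2 above it, while those of Aff1 go from 1.69 to 0.975.

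The deposited peaks, called by the authors in each Ser5 library against input, differed in number at most of the genes. From 1 kb upstream to the gene end, Ell had 11 peaks in untreated cells and 4 after LPS, covering 10.4% and 2.85% of that stretch. Of the 10 untreated peaks in its body, the one at chr8:73084057-73084452 had the lowest ratio, 0.119, with 41 untreated, 4 LPS and 5 input tags, and was picked after its values were seen. Ell2 had 21 peaks in untreated cells and 40 after LPS, covering 13.5% and 30.0%, and Aff1 had 11 and 22, covering 3.98% and 9.49%. An Aff1 peak about 6.1 kb past the TSS, chr5:104189172-104190205, also picked after its values were seen, held 24 untreated and 59 LPS tags. Cdk9 had 7 and 3 peaks, covering 75.2% and 27.7% of this short gene. The remaining genes had 1 to 6 peaks in each library. Peak number also depends on the depth of a library, which was lower after LPS, and the 2 peak lists held 53467 and 49371 peaks in all.

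**Figure D5:**
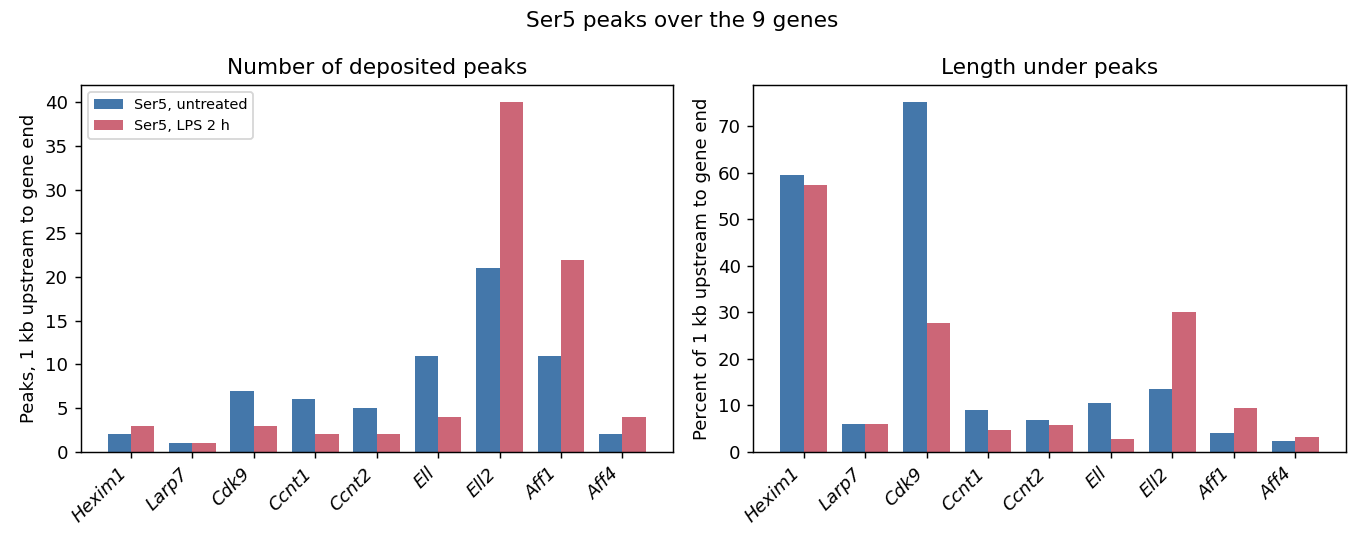
Number of deposited peaks, left, and percent of length under peaks, right, from 1 kb upstream of the TSS to the gene end, for untreated and LPS Ser5. Ell, Cdk9, Ccnt1 and Ccnt2 have more peaks in untreated cells, and Ell2, Aff1 and Aff4 more after LPS; Hexim1 has 2 and 3, with 59.6% and 57.4% of its length covered.

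Other genes of the same pathway were examined from 10 lists, of which 49 of 53 genes were matched to the annotation. The lists were the 7SK particle and its binders, super elongation complex and ELL partners, P-TEFb recruiters, NELF, DSIF and Spt6, the PAF1 complex, TFIIS and elongin, CTD kinases and cyclins, CTD phosphatases, and FACT. Their median TSS ratios ran from 0.720 (FACT) to 1.04 (TFIIS and elongin), and their median body ratios from 0.770 (7SK particle and its binders) to 1.297 (TFIIS and elongin). At the TSS none of the 45 that passed the tag minimum was 2 times higher and 2 were 2 times lower, against 5.7% and 14% of all coding genes, with a median ratio of 0.860. In the body 2 of 49 were 2 times higher and 2 lower, against 6.72% and 12.3% of all coding genes, with a median ratio of 0.931. The genes lower at the TSS were Ccnh, the cyclin of the TFIIH kinase, with 115 untreated and 37 LPS tags, and Ctdspl, a small CTD phosphatase, with 165 and 39. Ctdspl was also lower in the body, at 520 and 170 tags, as was the little elongation complex gene Zc3h8, at 50 and 17. Scaled to all tags, both bodies were near or below input, which does not show that Ser5 was absent. Genes higher in the body were Rdbp, which encodes the NELF-E subunit, with 49 untreated and 108 LPS tags, and Tcea1, which encodes the elongation factor TFIIS, with 118 and 210, where the untreated body level of Tcea1 (0.402 TPM per kb) was below input (0.461). Of further 7SK partners, Mepce, the capping enzyme of 7SK, had 593 untreated and 365 LPS tags at the TSS and a ratio of 0.750, and Hexim2, the paralog of Hexim1, had 250 and 206 and a ratio of 1.00.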

How the data were processed

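Ser5 Pol_II ChIP-Seq of untreated and LPS-treated macrophages and input DNA of untreated cells were analysed, 1 library each, grouped by the sample labels. The authors shortened the reads, used Bowtie to place those with a unique match on mm9, and called peaks with MACS in each Ser5 library against the input; versions are not given in the sources used here. Each line of the deposited tag files is 1 aligned tag with its strand, and repeated tags were left in. The deposited peak lists give a score per peak, minus 10 times log10 of the MACS p-value, with a lowest value of 50.

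From these, tags on the autosomes and X were counted by their 5′ end and scaled to 1000000 tags of the library (TPM). A gene's TSS is that of its longest coding sequence in GENCODE M1, and symbols that name more than 1 gene were left unmatched (Cdc73), as were Rn7sk, Ice1 and Supt4b. Genes that reached 10 tags in the Ser5 libraries together were compared, and a ratio of at least 2 or its inverse was counted, with 0 tags set to 0.5 for that rule. Intervals are exact Poisson for levels and exact conditional (Clopper-Pearson) for ratios. The 9 genes, the pathway lists and the marker lists were chosen with earlier results of these data known. The genes most like a member were named for the highest and the lowest TSS ratio, by Euclidean distance, and pathway genes were named when past 2-fold, with Mepce and Hexim2 added after their values were seen. Motifs were searched in the RefSeq promoters (GRCm38.p6), matched by symbol for all 9 genes. The alternatives were a shift of tags by 75 bp, repeated tags counted as 1, other scalings, windows, minimums and starts, and a stricter peak score of 100. Tags whose first 30 bases occur once in the genome and the RefSeq starts were added after seeing the data. The computations ran in scipy 1.17.1, pandas 2.3.3 and numpy 2.4.6 under Python 3.11.15 and figures in matplotlib 3.10.9, and counts, intervals and ratios were tested on simulated data.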

Additional observations from a re-analysis of the deposited data

How the results depend on the processing

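Of 79 values of the counts, medians and shares under alternatives, none left 1.5 times the main count or the range used to judge it. For the medians that range was wide, since at the TSS it held both 0.779 and 1.17. Of 171 values of single genes 162 stayed within their counting interval. Those under another tag minimum could not move, because it leaves the ratio of a single gene as it is. Other starts changed the TSS ratio of Ccnt1, Aff1 and Aff4 only. These counts therefore include values fixed in advance. With the RefSeq starts the median TSS ratio of the 9 was 1.17 in place of 0.779, through Ccnt1. Counting 1 tag per position and strand gave Hexim1 a TSS ratio of 0.900, outside its interval. Scaling to the median ratio of all coding genes divides every TSS ratio by 0.834 and every body ratio by 0.885, and placed the TSS ratio of Hexim1 at 0.933 and of Ccnt2 at 1.69, and the body ratio of Ell2 at 1.77; no gene changed side of 1 under any scaling run. The body ratio of Ell ran from 0.395 to 0.448 over 8 alternatives, below 2-fold lower in each. Keeping only tags whose first 30 bases occur once left it at 0.404. With 1 library per condition no replicate could be left out. No paired analysis was possible because the result comes from no test.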
